A study of Micropterus salmoides with 6 samples.

Results

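The genes described here make the protein coat of intestinal lipoproteins and the machinery that loads and exports them. They were picked from the gene table of an RNA sequencing study of largemouth bass (Micropterus salmoides), a freshwater fish, under acute heat. A gene was a member if it was LOC119893002 (apolipoprotein B-like), if its name began with apob, apoa1 to apoa5, apoc, apoe, mttp or sar1b, or if its description named an apolipoprotein A, B or C. It also needed 100 or more counts over all libraries. The rule used no difference between temperatures. It found 13 of 35854 genes, and all 13 passed the filter on low counts. Of the 16 genes that matched by name or description, 3 fell short of the minimum: apoba and apoc4 had 0 counts and LOC119909359 had 1. No identifier began with mttp. The gene described as the microsomal triglyceride transfer protein, LOC119898986, therefore lies outside the rule and is given beside the members.

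The heat group was held at 34 °C and the control group at 26 °C, the temperature at which all fish had been acclimated. Intestine was sampled from both groups after 9 h. There were 3 libraries per temperature, and equal amounts of tissue from 3 fish of 1 parallel tank group went into each, so the spread between libraries can be smaller than that between single fish. The labels give no strain, sex, age or segment of intestine, and each library holds all cell types of the organ.

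In vertebrates, absorbed fat leaves the enterocyte, the absorptive cell of the gut lining, inside large lipoproteins. Apolipoprotein B is the structural protein of each particle, and the microsomal triglyceride transfer protein (MTP) loads it with fat in the endoplasmic reticulum. The small GTPase SAR1B builds the COPII coat that carries the particles to the Golgi. Smaller apolipoproteins of the A, C and E classes sit on the surface, where they keep the particle soluble and guide lipases and receptors. Liver cells and, for apolipoprotein E, macrophages also make several of these proteins.

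Total counts were 8244328 to 15728903 in the heat libraries and 12254616 to 28822509 in the control libraries, with the most in control replicate 1. That library stood apart: its log2 CPM (counts relative to library size, scaled as given under processing) correlated with those of the other controls at 0.875 and 0.853 across genes and lncRNAs, against 0.932 between them. Enterocyte markers summed to 7036 to 8923 CPM in the heat libraries, 26130 CPM in control replicate 1 and 8498 and 10310 CPM in the other controls. All 30 listed enterocyte markers had counts, among them the disaccharidase gene si and the fatty acid binding protein gene fabp2. Of 23 tested, 0 passed in edgeR (1 higher and 2 lower at an unadjusted p under 0.05, against 6.86% and 9.78% of all genes). The 1 higher was usp2a (log2 fold change 1.41, edgeR adjusted p = 0.0544), and the 2 lower were si and anpepa. Log2 fold changes of the 23 were below 0 for 20 and above 0 for 3, with a median of -0.53 against -0.12 for all genes tested. Without control replicate 1 the medians were 0.04 and 0.01. The gene si was at 1205 to 1622 CPM in heat libraries and 2521 to 8279 CPM in controls. Its log2 fold change was -1.75 (edgeR adjusted p = 0.176). Goblet cell markers were at 4125 to 5837 CPM in heat libraries, 15060 CPM in control replicate 1 and 2723 and 2906 CPM in the other controls (19 of 40 at 0). Hepatocyte markers summed to 188 to 255 CPM in heat libraries and 201 to 303 CPM in controls. Of those 33 genes, 8 had no counts (hpda, hpdb, itih2, hpxb, ahsg1, f9a, tat and LOC119888658) and the fibrinogen gene fgb had 8 counts in all. Exocrine pancreas markers were at 348.4 to 552 CPM in heat libraries against 354 to 844 CPM in controls (10 of 44 at 0). Among them 1 of 29 tested passed in edgeR, the trypsin-like gene LOC119918082, which was lower (adjusted p = 0.0325). Erythrocyte markers were at 413 to 685 CPM in heat libraries against 443 to 739 CPM in controls (5 of 15 at 0). The summed level of macrophage and leukocyte markers was lower in every heat library, at 502 to 552 CPM against 626 to 847 CPM in controls (9 of 29 at 0). Of those markers, 0 of 15 tested passed in edgeR (2 higher and 2 lower at an unadjusted p under 0.05), and the 5 tested macrophage mannose receptor genes had log2 fold changes of 0.28 to 1.13. Smooth muscle markers also had a lower sum in every heat library, at 5937 to 6813 CPM against 7136 to 15370 CPM in controls (0 of 12 at 0). Here 3 of 11 tested passed in edgeR at an adjusted p under 0.05, all lower: synm, lmod1b and smtna (0.0285 to 0.0415). Of all genes tested, 0.394% were lower by that measure. All 11 tested smooth muscle genes had a log2 fold change below 0, and 8 were lower at an unadjusted p under 0.05. The remaining listed gene, desma, was too sparse to be tested. It was at 0.520, 1.37 and 2.37 CPM in heat and 0.172, 0 and 0.165 CPM in control libraries. The part of these cell types in the results below was not tested. In pooled tissue, fewer cells of a type and less RNA per cell cannot be told apart.

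Lipoprotein genes were among the most abundant messages of the bass intestine. The 13 members together held 1.69%, 2.52% and 2.08% of all counts in heat replicates 1, 2 and 3. In the controls they held 7.07%, 1.71% and 3.06%. Control replicate 1 was the highest of all libraries and control replicate 2 lay within the heat range, so the groups overlapped. LOC119893002 alone was the most counted gene of control replicate 1, with 3.38% of its counts. It ranked 2 in control replicates 2 and 3 and in heat replicates 2 and 3, and 14 in heat replicate 1.

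On the TPM scale (a share of all transcripts, which corrects for length and so allows levels of different genes to be compared), the apolipoprotein A-I genes stood highest. This protein is the main protein of high-density lipoprotein and is also carried on particles leaving the gut. The gene apoa1b averaged 8605 ± 2157 TPM in heat libraries and 12420 ± 8287 TPM in controls (SD, n = 3 each). The apolipoprotein A-I-like gene LOC119911177 followed at 7410 ± 1777 TPM in heat and 9712 ± 6135 TPM in control libraries. Their ranges overlapped in both groups, although apoa1b was the higher in every library.

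Next in the heat group came apoea at 3764 ± 1532 TPM, LOC119893002 at 1368 ± 621 TPM and the apolipoprotein A-IV-like LOC119907928 at 972.5 ± 264 TPM. In controls the means of LOC119907928 (3595 ± 2858 TPM) and LOC119893002 (3500 ± 2851 TPM) were in the other order, and in both groups the ranges of this pair overlapped. The other A-IV-like genes, LOC119898262 and LOC119897329, averaged 645 and 133 TPM in heat and 1221 and 470 TPM in control libraries. In the heat group LOC119911177, apoea, LOC119907928, LOC119898262 and LOC119897329 each lay above the next member in rank without overlap, as did apoc1 above apoa2. In controls no neighbouring pair was separated except apoa2 from apobb.1.

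The remaining members were far lower. In heat libraries apoc2 averaged 67.5 TPM, sar1b 54.3, apobb.1 30.9, apoc1 20.8, apoa2 8.94 and LOC119909360 5.45 TPM. In controls the averages were 348.1 TPM for apoc2, 182 for apoc1, 56.1 for sar1b, 48.6 for apoa2, 4.89 for apobb.1 and 0.700 for LOC119909360. The gene apobb.1 thus stood above apoc1 and apoa2 by mean in heat libraries and below both in controls. LOC119898986 (MTP) was at 63.0 ± 19.7 TPM in heat and 76.5 ± 60.3 TPM in control libraries, near sar1b. TPM sums to a fixed total, part of which went to the deposited lncRNA transcripts. They took 41.2%, 21.3% and 22.4% of it in heat replicates 1, 2 and 3. In control replicates 1, 2 and 3 they took 9.93%, 26.79% and 26.75%. Control replicate 1 thus had the lowest share and heat replicate 1 the highest, while the other controls lay above the other heat libraries. Group comparisons below therefore use CPM.

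**Figure D1:**
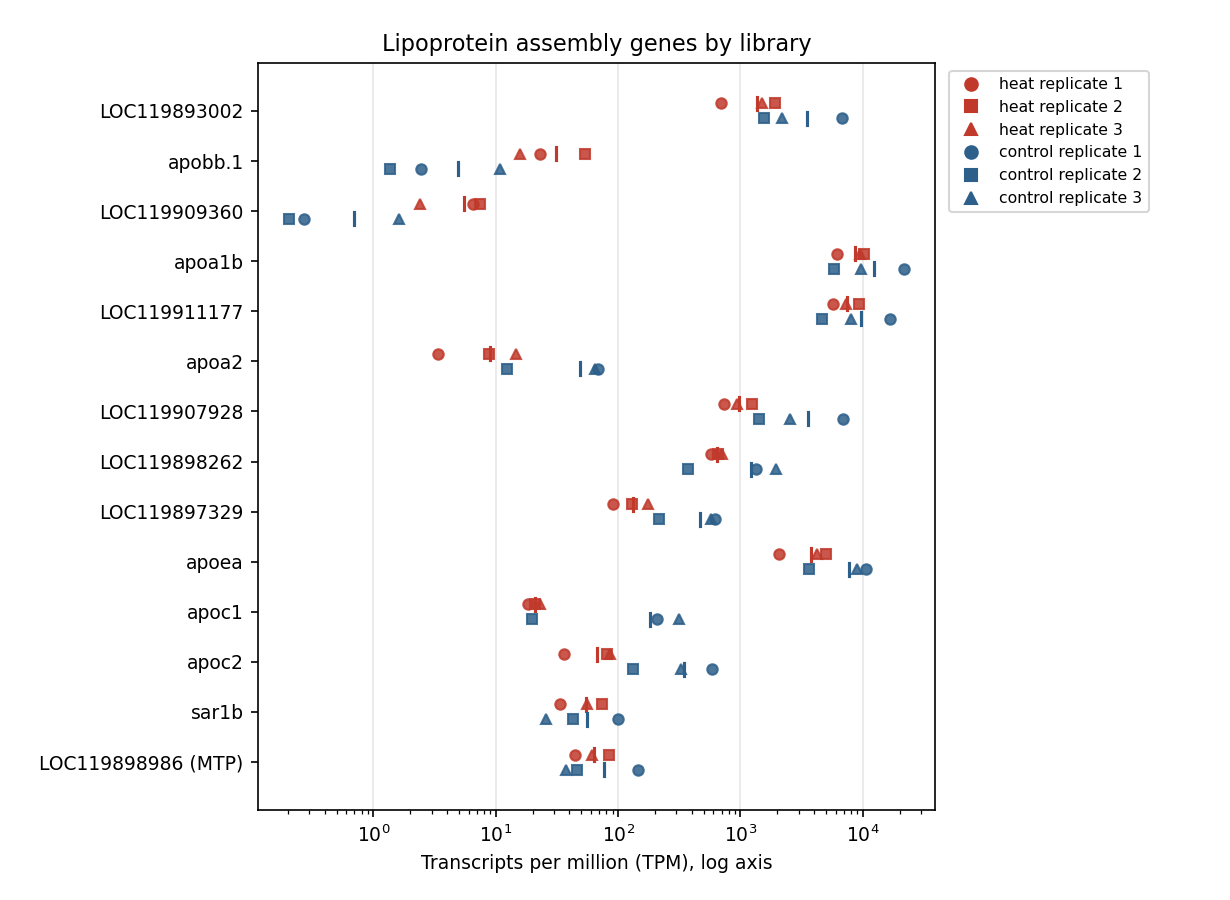
TPM (log axis) of the 13 lipoprotein genes and LOC119898986 (MTP) in each library; red symbols are heat replicates, blue symbols control replicates, and vertical ticks are group means. The apolipoprotein A-I genes lie at 4639 TPM or above in every library, and only apobb.1 and LOC119909360 have all heat libraries above all controls.

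Positions are those of the deposited table, and the start and end of all 13 members equal those of the RefSeq gene table for assembly ASM1485139v1, where all are protein coding. Most members lie in a few clusters. A run of 31.4 kb on scaffold NW_024040152.1 (12556604 to 12588046) holds apoc2, apoa2, apoc4, apoc1, LOC119898262 and LOC119897329 with no other listed gene between them. All 5 members of this run had a log2 fold change below 0. On NW_024040817.1, LOC119907928 (11011963 to 11013201) and apoea (11021762 to 11027293) flank LOC119907935, a gene with no description in the table. LOC119907935 was at 5.33, 4.46 and 43.9 CPM in heat and 332, 97.7 and 197 CPM in control replicates 1, 2 and 3. All heat libraries were below all controls, with heat replicate 3 nearest to them. Its log2 fold change was -3.54 (SE 0.96, edgeR adjusted p = 0.127), so it did not pass. The outer neighbours tomm40l and msto1 had log2 fold changes of 0.08 and 0.29. LOC119896858 (trypsinogen-like protein 3), the neighbour of the apoc2 run, was at -1.27 (edgeR adjusted p = 0.409).

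The apolipoprotein B genes apobb.1 (18559869 to 18579827) and LOC119909360 (18590326 to 18603300) lie on the same strand of NW_024040928.1 with LOC119909359 between them. LOC119893002 lies elsewhere, on scaffold NW_024044556.1 (10023 to 25000), with no other gene listed wholly within 15 kb. The A-I genes are also apart, apoa1b on NW_024042261.1 (11712772 to 11715163) and LOC119911177 on NW_024041082.1 (27466 to 29772), each beside a gene described as a T-box factor of the TBX1-A type. Log2 fold changes of these T-box genes were -1.80 beside apoa1b and -0.76 beside LOC119911177 (edgeR adjusted p of 0.173 and 0.617). LOC119908931, described as RhoB and next to LOC119909360, was at 0.09. No member overlapped another listed gene or lncRNA transcript. No source used here states how the authors' counting split reads between similar copies, so values of the A-I pair, the A-IV-like genes and the apolipoprotein B genes may share reads.

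**Figure D2:**
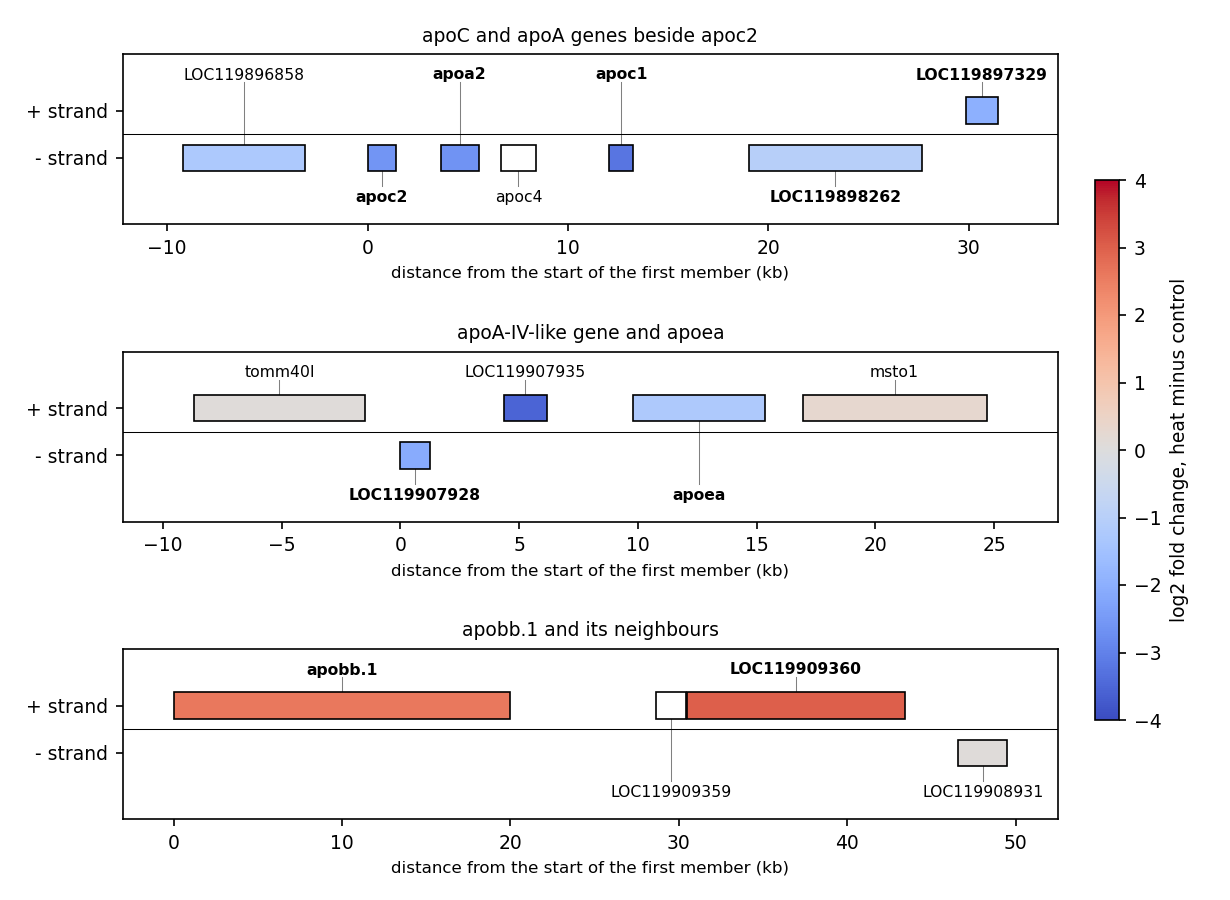
Maps of the 3 member clusters, with distance in kb from the start of the first member; boxes are genes on either strand, bold names are members, and colour is the log2 fold change, heat minus control (white, not tested). Members of the apoc2 and apoea clusters have values below 0, while apobb.1 and LOC119909360 have values of 2.60 and 3.02.

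The comparison asked which of these genes differed in the intestine after acute heat. No member passed the test with all libraries: 0 of 13 had an adjusted p under 0.05 (edgeR quasi-likelihood test, Benjamini-Hochberg over all 20326 genes tested), where 0.984% of all genes did, 0.59% higher and 0.394% lower. Fitted values of the apolipoprotein C, A-II and A-IV genes were 2.03-fold to 9.47-fold lower in heat libraries, and those of LOC119893002 and apoea 3.07-fold and 2.36-fold lower. Those of both apolipoprotein B genes on NW_024040928.1 were 6.06-fold and 8.12-fold higher. The abundant A-I genes, sar1b and MTP had log2 fold changes between -0.73 and -0.25. DESeq2, run as an alternative on the same counts, called 2 members higher (apobb.1 and LOC119909360) and 5 lower (apoa2, LOC119907928, LOC119897329, apoc1 and apoc2). Of the genes it tested, 3.39% were higher and 3.69% lower.

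In all, 11 members had a log2 fold change (heat minus control) below 0 and 2 above, with a median of -1.24 against -0.12 for all genes tested. At an unadjusted p under 0.05 there were 5 lower and 2 higher members, where 9.78% and 6.86% of all genes were lower and higher by that measure, 16.6% in all. Heat and control libraries did not overlap for 3 lower members (LOC119907928, LOC119897329 and apoc2) and 2 higher ones (apobb.1 and LOC119909360). Of all genes tested, 14.4% were lower and 11.5% higher without overlap. The smallest adjusted p of a member was 0.0994, for apoc2.

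The heat libraries differed less among themselves than the controls did. Across the 13 members the highest heat library was 1.11 to 4.16 times the lowest, with a median of 1.46, and the highest control was 4.22 to 18.6 times the lowest, with a median of 6.36. Over the 14130 tested genes with a mean of at least 5 CPM, the medians were 1.35 in the heat group and 1.90 in the controls. Control replicate 1 was the highest control for 9 members and control replicate 3 for the other 4, while control replicate 2 was the lowest for 12. Over the same 14130 genes, control replicate 1 was the highest control for 47.5%. The spread was wider in controls for all 13 members and for 78.8% of those genes. Without control replicate 1 the median of the members was -0.74, against 0.01 for all genes, and apoc2 was then the 1 member past the threshold, as were 8.71% of all genes (4.61% higher and 4.11% lower).

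**Figure D3:**
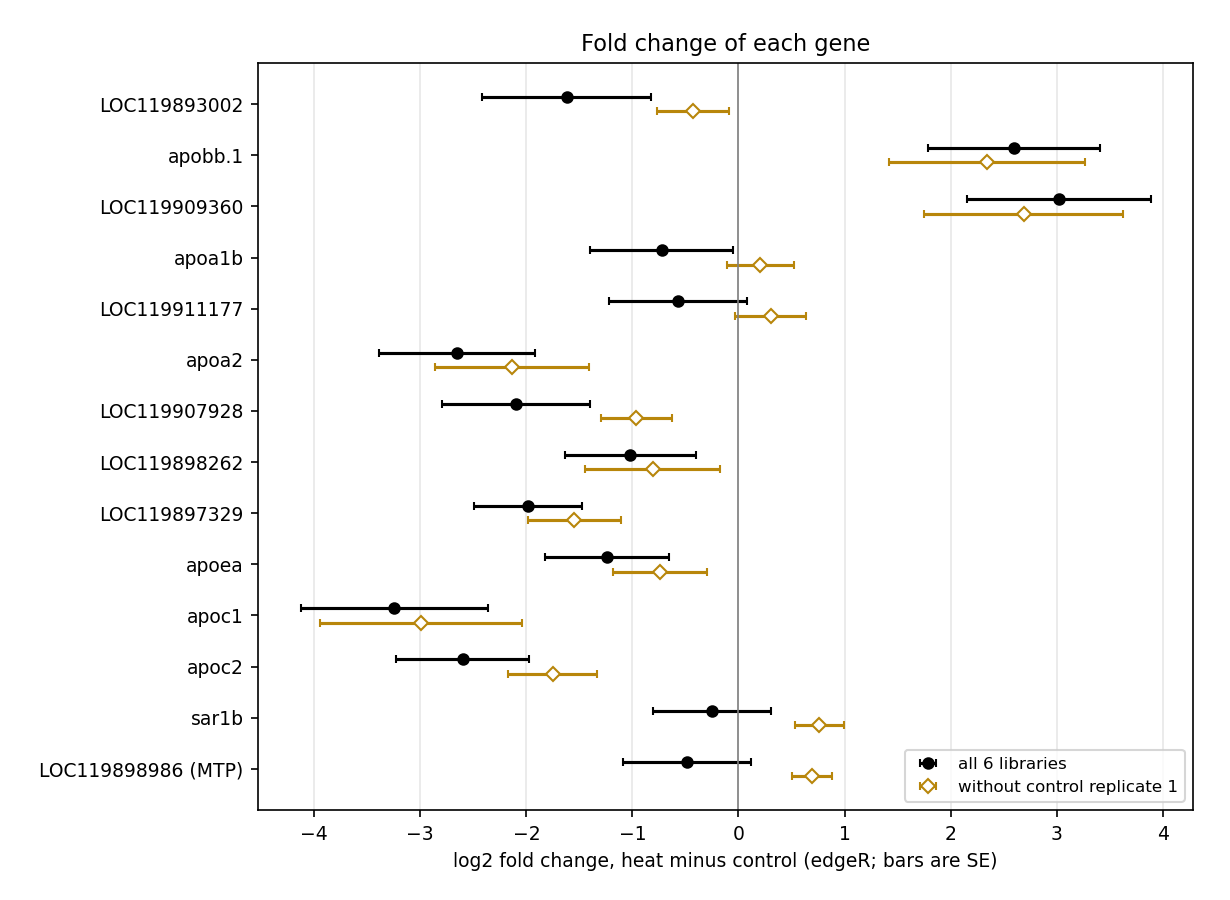
Log2 fold change, heat minus control, with SE from edgeR, for the 13 members and LOC119898986 (MTP); black circles use all 6 libraries and open diamonds leave out control replicate 1. Values for apobb.1 and LOC119909360 stay above 2 and those for apoc1 and apoa2 stay below -2 in both fits, while apoa1b, LOC119911177, sar1b and MTP cross 0.

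The apolipoprotein B genes did not share a pattern. LOC119893002, the main one by level, was at 4541, 8312 and 6404 CPM in heat replicates 1, 2 and 3 and at 41816, 6580 and 10797 CPM in control replicates 1, 2 and 3. Control replicate 2 lay inside the heat range, and control replicate 1 was 4.81 times the mean of the other controls. Its log2 fold change was -1.62 (SE 0.79, edgeR adjusted p = 0.360), and -0.43 without control replicate 1.

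The gene apobb.1, which carries the zebrafish name of an apolipoprotein B copy, was at 179, 274 and 78.8 CPM in heat libraries. It was at 17.8, 6.90 and 63.2 CPM in control libraries. All heat libraries were above all controls, but heat replicate 3 and control replicate 3 were close. For apobb.1 the fit gave a log2 fold change of 2.60 (SE 0.81, edgeR adjusted p = 0.173), and 2.13 to 3.88 when 1 library was left out.

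Its neighbour LOC119909360 was at 45.6, 34.8 and 10.97 CPM in heat and 1.80, 0.967 and 8.65 CPM in control libraries. The order of the libraries was similar, with control replicate 3 highest and control replicate 2 lowest among controls, where control replicate 2 gave 15 counts. Its fitted log2 fold change was 3.02 with an SE of 0.86 (edgeR adjusted p = 0.142). Set against apobb.1, its TPM was 27.95%, 13.9% and 15.2% in heat and 10.97%, 14.97% and 14.99% in control libraries. All libraries other than heat replicate 1 thus had a ratio between 10.97% and 15.2%.

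Among the members and MTP, sar1b and MTP had the smallest fitted differences with all libraries. LOC119898986 (MTP; NW_024040263.1, 10836768 to 10848929) was at 82.4, 103 and 73.6 CPM in heat libraries. It was at 255, 55.1 and 52.6 CPM in controls. Control replicate 1 was above and the other controls below every heat library. With all libraries the log2 fold change was -0.49 (SE 0.61, edgeR adjusted p = 0.734), and 0.69 (SE 0.19, adjusted p = 0.06765) without that library.

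The COPII GTPase gene sar1b (NW_024044681.1, 14867171 to 14879913) was at 52.5, 76.7 and 57.1 CPM in heat libraries. It was at 147, 43.3 and 30.7 CPM in controls, in the same arrangement as MTP. For sar1b the log2 fold change was -0.25 (SE 0.56, edgeR adjusted p = 0.861) and turned to 0.76 without control replicate 1 (adjusted p = 0.0855). The sign also turned on the TPM scale (0.10).

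The apolipoprotein A-I genes overlapped between groups. The gene apoa1b was at 5649, 6210 and 5599 CPM in heat libraries, a narrow range. It was at 18716, 3466 and 6683 CPM in controls, on both sides of the heat libraries. For apoa1b the log2 fold change was -0.73 (SE 0.67, edgeR adjusted p = 0.637), and 0.21 without control replicate 1. LOC119911177 was at 4949, 5313 and 4097 CPM in heat and 13477, 2597 and 5219 CPM in control libraries. Its log2 fold change of -0.57 (SE 0.65, edgeR adjusted p = 0.708) likewise turned to 0.30. In each library LOC119911177 had 0.761 to 0.925 times the TPM of apoa1b.

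The gene apoa2 encodes apolipoprotein A-II, a smaller protein of high-density lipoprotein. It was at 1.95, 3.21 and 5.26 CPM in heat and 35.3, 4.38 and 27.0 CPM in control libraries. Control replicates 1 and 3 were high and control replicate 2 lay within the heat range. The fit gave apoa2 a log2 fold change of -2.66 (SE 0.73, edgeR adjusted p = 0.131), resting on 15 to 82 counts per heat library.

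Apolipoprotein A-IV is known from mammals as a protein that enterocytes add to particles during fat absorption. LOC119907928, the most abundant A-IV-like gene, was at 463, 526 and 384 CPM in heat libraries. It was at 4066, 575 and 1220 CPM in controls. No heat library reached a control, although heat replicate 2 and control replicate 2 were close. Here the log2 fold change was -2.09 (SE 0.70, edgeR adjusted p = 0.199), and -0.96 without control replicate 1.

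LOC119897329 was at 70.4, 66.5 and 88.8 CPM in heat and 451, 107 and 336 CPM in control libraries, again without overlap. Its log2 fold change was -1.99 (SE 0.51, edgeR adjusted p = 0.112), and -1.55 without control replicate 1. The neighbouring LOC119898262 was at 683, 516 and 547 CPM in heat and 1491, 289 and 1763 CPM in control libraries. Here control replicate 2 was the lowest of all 6 libraries, and the log2 fold change was -1.02 (SE 0.62, edgeR adjusted p = 0.460).

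Apolipoprotein E is a ligand for lipoprotein receptors. Its gene apoea was at 1381, 2231 and 1826 CPM in heat and 6744, 1566 and 4528 CPM in control libraries. Control replicate 2 lay among the heat libraries and the other controls above all of them. The fit gave apoea a log2 fold change of -1.24 (SE 0.59, edgeR adjusted p = 0.343).

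The apolipoprotein C genes and apoa2 had the lowest log2 fold changes of the members. The gene apoc2 encodes the cofactor of lipoprotein lipase and was at 22.1, 32.6 and 33.5 CPM in heat libraries. It was at 336, 51.4 and 149 CPM in control libraries, all above the heat libraries. Its log2 fold change was -2.60 (SE 0.63, edgeR adjusted p = 0.0994), or 6.07-fold lower. Without control replicate 1 it was -1.75 and passed by a small margin (edgeR adjusted p = 0.04998); over all fits with 1 library left out the adjusted p ran up to 0.374.

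The gene apoc1, whose mammalian product limits lipase action and uptake by receptors, was at 7.15, 5.41 and 5.77 CPM in heat libraries. It was at 75.9, 4.96 and 92.1 CPM in control libraries. Control replicate 2 was the lowest of all 6 libraries, and the other controls lay far above every heat library. The fit gave apoc1 a log2 fold change of -3.24 (SE 0.88, edgeR adjusted p = 0.129), the lowest of the members, and -2.69 to -3.79 with 1 library left out.

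Ratios between members within a library do not depend on the scaling of libraries; those given here were chosen after the values were seen and have no test. Relative to the summed TPM of both A-I genes, LOC119907928 stood at 6.15%, 6.44% and 5.59% in heat and 17.9%, 13.4% and 14.5% in control libraries. All controls, control replicate 1 included, lay above all heat libraries. LOC119893002 stood at 0.0582, 0.0981 and 0.0900 of the A-I sum in heat and at 0.177, 0.148 and 0.124 in control libraries. Against the A-I sum, 7 of the 11 other members were lower in heat without overlap, where 2.03% of all genes tested were. They were LOC119893002, apoa2, LOC119907928, LOC119897329, apoea, apoc1 and apoc2. Another 2 (apobb.1 and LOC119909360) were higher, as were 5.68% of genes. Control libraries of apoa1b differed 5.40-fold, where the median tested gene of at least 5 CPM differed 1.90-fold. Division by such a sum alters the spread of every gene. In CPM, 14.4% of genes were lower without overlap. The 2.03% therefore depends on the denominator and cannot show an excess among members.

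Relative to LOC119893002, the TPM of apoc2 was 5.24%, 4.25% and 5.66% in heat and 8.70%, 8.45% and 14.9% in control libraries. It was the 1 member lower without overlap by this measure, where 0.256% of all genes tested were. That share likewise depends on the denominator, since LOC119893002 differed 6.355-fold between control libraries. The gene sar1b stood at 4.83%, 3.86% and 3.73% of LOC119893002 in heat and 1.47%, 2.75% and 1.19% in control libraries. MTP stood at 6.41%, 4.38% and 4.06% in heat and 2.16%, 2.96% and 1.72% in control libraries. Both were thus higher per apolipoprotein B message in every heat library, but so were 25.4% of all genes tested. The ratio of apobb.1 to LOC119893002 was 3.36%, 2.81% and 1.05% in heat and 0.0362%, 0.0879% and 0.498% in control libraries.

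**Figure D4:**
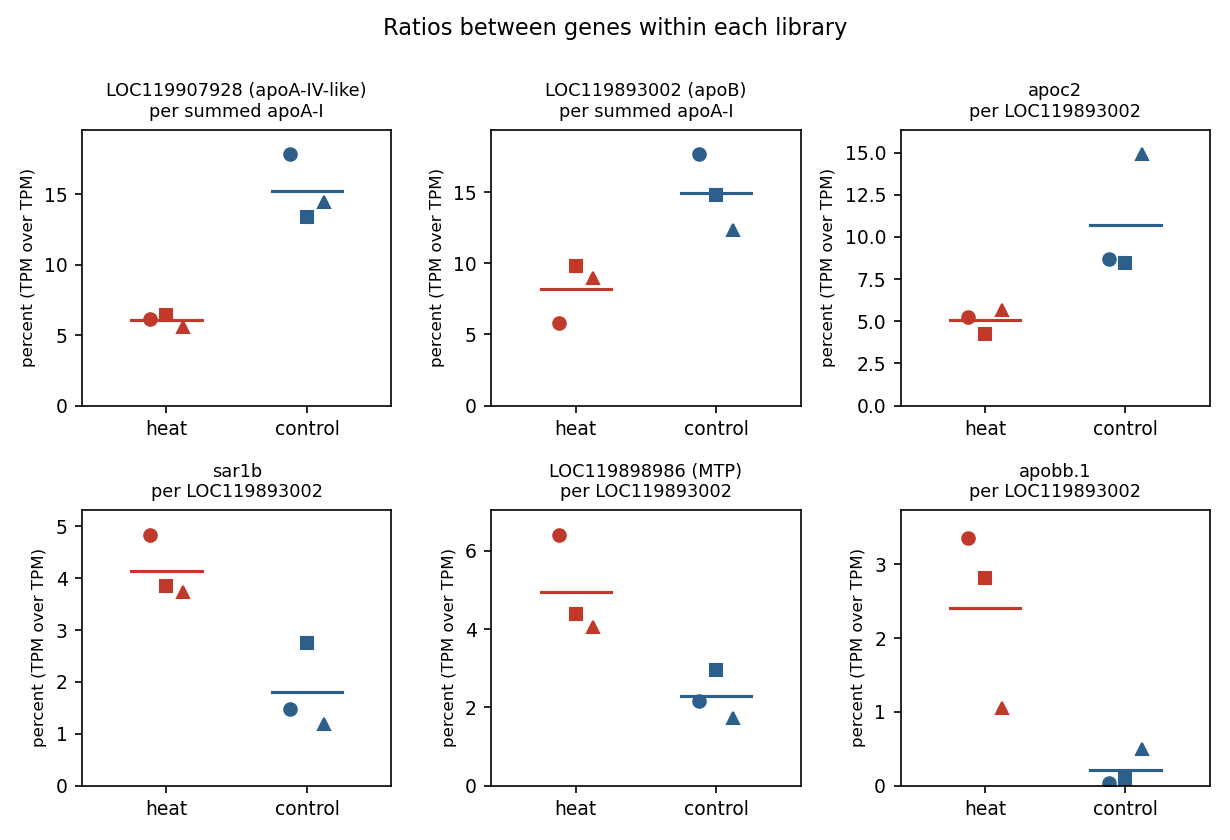
TPM of one gene as a percentage of another in each library; circles, squares and triangles are replicates 1, 2 and 3, red for heat and blue for control, and lines are means. The ratios drawn were chosen after the values were seen, and in each of them heat and control libraries do not overlap. Other ratios did overlap, among them apoc1 and apoa2 per LOC119893002. The A-IV-like gene per A-I averages 6.06% in heat and 15.2% in control libraries.

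Among members, LOC119907928 and apoea were closest to LOC119893002 over the 6 libraries, with root-mean-square differences of centred log2 CPM of 0.34 and 0.41. The A-I genes were at 0.49 and 0.57 and apobb.1 and LOC119909360 farthest, at 2.42 and 2.65. Of 14113 other genes with a mean of at least 5 CPM, the closest were LOC119918048 (serine protease 27-like, 0.12), eci1 (enoyl-CoA delta isomerase 1, an enzyme of fatty acid oxidation, 0.17) and the undescribed LOC119910704, LOC119888143 and LOC119891300 (0.17 to 0.20). For MTP the closest were stoml3b (0.03), cnih1, a cargo receptor of the early secretory pathway (0.09), the NPC2-like sterol carrier LOC119910566 (0.09), LOC119890327 (RNF128-like, 0.10) and LOC119886127, a subunit of the SEC61 translocon (0.10). In these genes too control replicate 1 was the highest library, at 30.9 to 4614 CPM.

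No gene of the 4 other lists of fat handling passed with all libraries. Without control replicate 1, 4.61% of all genes were higher and 4.11% lower past the threshold, with a median of 0.01, and the counts below from that fit stand against those shares. Of 32 tested genes for fat uptake and triglyceride resynthesis, 0 passed in edgeR (4 higher and 6 lower at an unadjusted p under 0.05), and the median log2 fold change was -0.20. The liver-type fatty acid binding protein gene LOC119892406 was at 542, 804 and 569 CPM in heat and 968, 125 and 166 CPM in control libraries. Its log2 fold change was 0.60 (edgeR adjusted p = 0.731), and 2.14 (adjusted p = 0.0134) without control replicate 1. The acyl-CoA synthetase gene acsl5 and the intestinal fatty acid binding protein gene fabp2 had log2 fold changes of -0.04 and -0.53, which turned to 0.72 and 0.91 without control replicate 1. Without control replicate 1 the list had 8 genes higher and 2 lower of 32 and a median of 0.41.

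Of 28 tested genes for export from the endoplasmic reticulum, 0 passed in edgeR (3 higher and 3 lower at an unadjusted p under 0.05), with a median of -0.15. The gene p4hb encodes protein disulfide isomerase, the partner subunit of MTP, and was at 781, 686 and 607 CPM in heat and 1604, 433 and 561 CPM in control libraries (log2 fold change -0.32, and 0.49 without control replicate 1). The related pdia3 was at 0.15, and at 1.10 (edgeR adjusted p = 0.0266) without control replicate 1. The gene cideb, whose product aids lipid loading of lipoproteins in mouse liver, was at -0.62, and at 0.73 without that library (edgeR adjusted p = 0.0623). Without control replicate 1, 5 of 28 were higher and 0 lower, with a median of 0.49.

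Of 32 tested transcriptional regulators of apolipoprotein genes, 0 passed in edgeR (3 higher and 4 lower at an unadjusted p under 0.05). Their median log2 fold change was 0.01. The nuclear receptor gene hnf4g and the intestinal homeobox gene cdx1b had log2 fold changes of 0.40 and 0.38. The gene srebf1, a master factor of fatty acid synthesis, was at 623, 584 and 457 CPM in heat and 299, 252 and 229 CPM in control libraries. These did not overlap, and the log2 fold change was 1.09 (SE 0.30, edgeR adjusted p = 0.131; 0.0249 without control replicate 1).

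Of 26 tested genes listed under lipases, transfer proteins and receptors, 0 passed in edgeR (1 higher and 4 lower at an unadjusted p under 0.05). Their median was -0.21. No tested gene of this list is described as a transfer protein, and the list also holds apolipoprotein genes outside the rule. The 1 higher gene was the apolipoprotein gene apom, and apol was 1 of the 4 lower. The summed level of this list was 1899 to 2108 CPM in heat and 2674 to 3440 CPM in control libraries, without overlap. Most of it came from scarb1 and abca1b, which averaged 716 and 771 CPM in heat and 1257 and 1172 CPM in control libraries, while the log2 fold changes of the 26 genes went both ways (12 above 0, 14 below). The high-density lipoprotein receptor gene scarb1 was at 530, 773 and 846 CPM in heat and 1041, 1308 and 1423 CPM in control libraries (log2 fold change -0.81 with an SE of 0.36; edgeR adjusted p = 0.311). The lipid exporter gene abca1b and the low-density lipoprotein receptor gene ldlrb had log2 fold changes of -0.60 and 0.48. Without control replicate 1 this list had 1 gene higher and 3 lower of 26, and the transcriptional regulators 2 and 2 of 32.

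**Figure D5:**
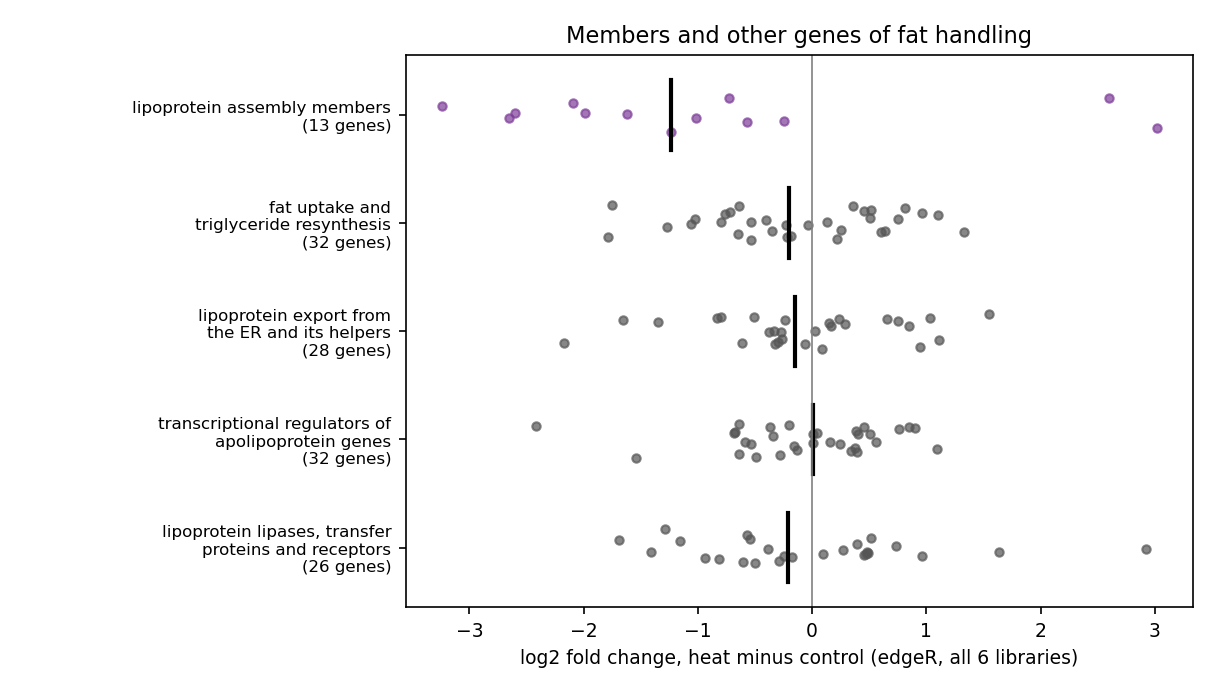
Log2 fold change, heat minus control, of the 13 members (purple) and of the tested genes of 4 other lists (grey) from the edgeR fit of all 6 libraries; each point is a gene and black bars are medians. The members' median is -1.24 and the list medians lie between -0.21 and 0.01.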

How the data were processed

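The authors deposited whole-number counts and TPM for each gene and lncRNA transcript, per the file headers. Of tools, HISAT2 2.1.0, StringTie 1.3.3 and DESeq are listed, without a role, in the submitters' processing notes. Genome build and strand setting are not given in the sources used here. Per the labels' protocols, a kit for total RNA was used to make the libraries. The 2488 assembled genes whose counts repeat those of their lncRNA transcripts were dropped.

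Counts of genes and 3399 lncRNA transcripts were fitted together with edgeR 4.0.16 (R 4.3.3): filterByExpr (minimum count 10, minimum total 15), TMM scaling, quasi-likelihood F test, temperature as the only term, Benjamini-Hochberg within genes, threshold 0.05. SE comes from the F statistic. CPM use TMM-scaled library sizes. The fit was also run on simulated counts drawn from its own means and dispersions. They held no library set apart, so they cannot show how the fit handles control replicate 1. Alternatives used DESeq2 1.42.0, limma 3.58.1 and the settings named below. Replicates are separate pools, but p-values measure only the spread between pools.

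Members and lists were chosen with earlier results of these data known. Besides the members, the main results name, per pathway list, the genes past the threshold (there were none) and the 3 highest by mean TPM. Pathway genes named only under other observations fall outside this rule and were chosen after their values were seen. Also named are the 5 genes nearest to LOC119893002 and, since no identifier was mttp, to LOC119898986 in centred log2 CPM (prior count 2). The hepatocyte list took in plgrkt through its description pattern. The exocrine pancreas list also holds tysnd1 and cpb2, described as a peroxisomal matrix peptidase and a plasma carboxypeptidase. Of 35854 gene identifiers, 33187 matched the RefSeq table, which was used for biotypes.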

Additional observations from a re-analysis of the deposited data

How the results depend on the processing

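The members' results were recomputed under 15 alternatives. DESeq2 called 7 of 13 members, 2 higher (apobb.1, LOC119909360) and 5 lower (apoa2, LOC119907928, LOC119897329, apoc1, apoc2), with adjusted p of 0.000658 to 0.0169, and 1437 genes in all. With 1 library left out, 0 to 1 members passed and the count over all genes ran from 0 to 1825. It was 355 when genes were fitted without lncRNA transcripts, 76 with limma on log2(TPM + 1), 41 with log2(TPM + 0.1), 0 with log2(TPM + 1) and no filter, and 0 with the replicate block, against 200; no member passed in these. Deviations of same-numbered heat and control libraries correlated at -0.02, -0.07 and 0.11, and those of differently numbered ones at -0.11 to 0.12. With 3 libraries per group these values cannot decide whether the libraries were paired, and no pairing is stated. Signs turned for sar1b under the replicate block (0.11), limma on log2(TPM + 1) with and without a filter (0.10 in both), log2(TPM + 0.1) (0.11) and without control replicate 1 (0.76). Without that library they also turned for apoa1b (0.21), LOC119911177 (0.30) and LOC119898986 (0.69). With each library left out in turn, the log2 fold change ran from -0.58 to 0.76 for sar1b, -1.13 to 0.21 for apoa1b, -0.97 to 0.30 for LOC119911177 and -0.84 to 0.69 for LOC119898986. The cause was not tested. RLE and upper-quartile scaling and no count filter left 0 members past the threshold and turned no sign. Depth limits apoa2, with 15 to 82 counts per heat library, and LOC119909360, with 15 to 105 counts per control library.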

Other observations

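Apolipoprotein genes outside the rule were sparse or went several ways, and those named here were chosen after their values were seen. All genes named in this paragraph also belong to the list of lipases, transfer proteins and receptors above. The gene apom, whose product carries signalling lipids on high-density lipoprotein, was at 3.90, 3.45 and 1.48 CPM in heat and 0.901, 0.129 and 0 CPM in control libraries (log2 fold change 2.93, edgeR adjusted p = 0.213). The gene apol was at 23.1, 20.6 and 27.3 CPM in heat and 94.8, 24.4 and 38.8 CPM in control libraries (-1.16, edgeR adjusted p = 0.277), with heat replicate 3 above control replicate 2. The gene lpl, the lipase that apolipoprotein C-II activates, was at 9.48, 10.9 and 9.43 CPM in heat and 34.2, 19.7 and 18.7 CPM in control libraries, without overlap (-1.28, edgeR adjusted p = 0.103). LOC119900751, also described as a lipoprotein lipase, was at 21.4, 20.1 and 22.0 CPM in heat and 19.1, 16.6 and 9.47 CPM in control libraries, with the opposite sign (0.49, edgeR adjusted p = 0.480).

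Within the fat resynthesis list, the dgat genes differed in sign among themselves, as did the lipin genes. The tested mogat genes were all below 0 in the fit of all libraries, but only mogat3b was lower without overlap. The genes named in this paragraph were also chosen after their values were seen. The acyltransferase genes mogat3b and dgat1a, which join fatty acids to glycerides, were lower in every heat library than in any control, though neither passed (log2 fold changes -1.75 and -1.27, edgeR adjusted p of 0.0614 and 0.117). The genes dgat2 and dgat1b, of the same step as dgat1a, had log2 fold changes of 0.81 and 0.22 (edgeR adjusted p of 0.517 and 0.696). Those of mogat2 and mogat3a were -0.54 and -0.64 (edgeR adjusted p of 0.650 and 0.618). The more abundant mogat2 was at 76.1, 82.2 and 87.4 CPM in heat and 230, 63.2 and 62.7 CPM in control libraries. Only control replicate 1 was above its heat libraries. For mogat3a, control replicate 3 (1.98 CPM) was below every heat library. Of the lipin genes, whose products make diglyceride, lpin1 was at 2.86, 3.81 and 3.78 CPM in heat and 8.71, 15.9 and 11.6 CPM in control libraries (-1.78, edgeR adjusted p = 0.0609). The more abundant lpin2 was at 300, 400 and 239 CPM in heat and 159, 143 and 135 CPM in control libraries (1.10, edgeR adjusted p = 0.128). From the list of transcriptional regulators, gata5 was at 54.95, 41.6 and 55.5 CPM in heat and 194, 121 and 127 CPM in control libraries (-1.54, edgeR adjusted p = 0.0580). The related gata4 and the more abundant gata6 had log2 fold changes of -0.67 and 0.004 (edgeR adjusted p of 0.246 and 0.997). In the export list, the 3 genes lower at an unadjusted p under 0.05 were pla2g12b, LOC119899759 and sec24d (-2.18, -1.66 and -1.35). The 3 higher ones were sar1aa, surf4l and pdia6 (1.54, 1.11 and 0.94). None of them passed in edgeR (adjusted p of 0.156 to 0.264). The gene pla2g12b was at 10.3, 18.6 and 15.9 CPM in heat and 156, 22.05 and 24.3 CPM in control libraries. LOC119899759 was at 19.9, 22.8 and 24.7 CPM in heat and 156, 30.9 and 25.8 CPM in control libraries. For both, control replicate 1 was far above all other libraries.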
